A study of Mus musculus with 6 samples.

Results

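PI3K, mTOR and Ras signalling carries growth factor signals through 2 connected branches, and 8 genes of it were followed in mouse malignant mesothelioma, a cancer of the membranes around lung, heart and abdomen. The genes were Pik3ca, Akt1, Akt2, Tsc1, Tsc2, Stk11, Nf1 and Hras1, the symbol the array design uses for Hras. They were taken by gene name from the denser of the 2 array designs, with every non-control probe that carries the name. All 8 had at least 1 probe, and they are 8 of 24673 autosomal gene names with a value. Together they hold 64 of 235390 placed probes, of which 15 also lie on the sparser design.

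In this pathway Pik3ca encodes the catalytic subunit of PI3K, which makes the lipid signal that recruits the kinases Akt1 and Akt2. Tsc1 and Tsc2 form the complex that restrains mTORC1 and that Akt inactivates, and Stk11 (Lkb1) is the kinase that activates AMPK, another brake on mTORC1. Hras1 is a Ras GTPase, and Nf1 encodes neurofibromin, which switches Ras off. Tsc1, Tsc2, Stk11 and Nf1 are known tumour suppressors, so copy loss is the change usually looked for, whereas copy gain is the change usually looked for in Pik3ca, Akt1, Akt2 and Hras1.

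Genomic DNA of 5 tumours, labelled ARF-129, ARF-128, ARF-112, ARF-110 and ARF-104, was compared with DNA of C57BL/6J mice by array comparative genomic hybridisation, in which tumour DNA (Cy5) and reference DNA (Cy3) compete for each probe. The study's description gives 4 Arf(+/-) mice, which have 1 inactive copy of Arf, and its title speaks of asbestos-induced tumours in Arf knock-out mice. The titles name 5 tumours, so the genotype of 1 of them is not given, nor are strain, sex or age. Per the labels the DNA came from primary mesothelioma cells, but the label of ARF-104 names no cell type. All tumours form 1 group, with the same reference on every array and no dye swap, so the design gives each gene's ratio in each tumour and its mean over tumours, but no contrast between conditions. The labels' numbers were taken as separate animals, and p-values measure only the spread between these 5 samples. A ratio of DNA from many cells cannot tell a change in a share of the cells from a smaller change in all of them.

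ARF-110 was measured on the sparser design of 44050 spots and the other 4 tumours on the denser design of 243301 spots. ARF-128 was measured on both, and its denser array stands for it unless stated. Its title there is ARF-128PlusMinus, a suffix the labels do not explain. Arrays differed in probe noise, the SD of log2 ratios expected from neighbouring probes. It was 0.15 in ARF-110, 0.49 in ARF-129, 0.39 in ARF-112, 0.36 in ARF-104, and 0.78 on the denser and 0.43 on the sparser array of ARF-128, so ARF-128 is the least precise of the 5. All 64 probes were well above background on every array that holds them, and none was saturated. Values below are log2 ratios of tumour over reference, in which gain of 1 copy by every cell of a diploid tumour would give 0.58 and loss of 1 copy -1.

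Each probe is a synthetic DNA strand of 52 to 60 bases. The sequences of 10 probes are shown because the account below turns on them: within Stk11, Tsc2, Pik3ca and Nf1 a probe that read high and a probe that read low in the same tumours are set side by side, and for Tsc1 and Hras1 the lowest and the only probe are given. They are in lower case as the array file gives them, the build is mm7, and the strand and the exon or intron under each probe are not given in the sources used here.
Stk11, high, A_67_P02168384, chr10:79900043-79900102: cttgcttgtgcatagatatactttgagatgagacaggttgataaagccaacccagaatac
Stk11, low, A_53_P115584, chr10:79903974-79904031: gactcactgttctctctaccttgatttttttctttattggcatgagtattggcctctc
Tsc2, high, A_67_P08739999, chr17:22789441-22789500: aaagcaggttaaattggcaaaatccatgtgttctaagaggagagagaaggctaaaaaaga
Tsc2, low, A_53_P152128, chr17:22803413-22803471: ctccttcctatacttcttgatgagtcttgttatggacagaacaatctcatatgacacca
Pik3ca, high, A_53_P163607, chr3:32256709-32256768: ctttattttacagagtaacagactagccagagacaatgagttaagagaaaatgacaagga
Pik3ca, low, A_67_P00612334, chr3:32252454-32252513: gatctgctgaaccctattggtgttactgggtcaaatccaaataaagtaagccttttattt
Nf1, high, A_67_P02372316, chr11:79471803-79471862: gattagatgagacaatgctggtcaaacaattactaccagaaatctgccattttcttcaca
Nf1, low, A_67_P07410914, chr11:79535323-79535382: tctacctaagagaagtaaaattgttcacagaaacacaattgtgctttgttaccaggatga
Tsc1, low, A_67_P04466203, chr2:28684864-28684923: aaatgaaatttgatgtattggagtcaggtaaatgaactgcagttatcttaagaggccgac
Hras1, only probe, A_53_P154944, chr7:137608910-137608961: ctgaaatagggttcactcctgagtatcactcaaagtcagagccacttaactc

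The DNA was cut with AluI and RsaI before labelling, per the labels. None of the 64 probes holds the site of either enzyme (AGCT or GTAC, each the same on both strands), against 77 of 220065 autosomal probes of the denser design, or 0.035%.

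Segment levels over the 8 genes were low, and no gene was gained or lost in all tumours. A segment, a stretch of a chromosome with one fitted level, was called gained or lost when its mean was at or past 0.25 in either direction. Of 40 pairs of a gene and a tumour, 5 lay in a gained segment (12.5%) and 3 in a lost one (7.5%). Over all genes 14.2% of pairs were gained and 8.95% lost, so the 8 genes lay near the background in both directions. With normexp background correction 1 pair was gained and 0 were lost, and at a threshold of 0.35 the counts were 0 and 1. No called segment over them reached the level of 1 copy in every cell.

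Stk11 was the gene most often gained, in 3 of the 5 tumours, against 13.4% of genes gained in at least 3 tumours. Its segment mean was 0.27 for ARF-110, 0.32 for ARF-112 and 0.28 for ARF-129, and 0.14 for ARF-104 and -0.03 for ARF-128, which were not called. In ARF-110 the segment covered most of the chromosome, chr10:17538860-129866929. In ARF-112 it was short, 1.5 Mb with 305 probes (chr10:79540860-81044968), and in ARF-129 it was 1.98 Mb with 400 probes (chr10:79349985-81325525). The segment below the threshold in ARF-104 had nearly the same borders as that in ARF-129 (chr10:79363725-81323121). ARF-104, ARF-112 and ARF-129 were scanned on the same day, and the probes around Stk11 had a mean GC content of 38.6% against 36.6% over all autosomal probes. The part of the scan day and of GC content in these short segments was not tested.

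The other gained pairs concerned the Tsc genes. Tsc2 lay in a gain of the whole of chromosome 17 in ARF-129, at 0.30, and was at 0.14 for ARF-112, 0.00 for ARF-104 and ARF-110 and -0.07 for ARF-128. Tsc1 was called in ARF-112, at 0.251, just past the threshold, in a segment of 10.4 Mb (chr2:24392424-34801897). The same borders were fitted in ARF-129 at 0.13 and the same start in ARF-104 at 0.01, both from the same scan day. Neither gene was lost in any tumour.

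The 3 losses were shallow and involved ARF-112 and ARF-129. Pik3ca was lost in ARF-112, at -0.27, in a segment from the first probe of chromosome 3 to 87577538. Its segment means in the other tumours were -0.15 for ARF-104, -0.10 for ARF-129, -0.09 for ARF-110 and -0.04 for ARF-128, all below 0 and none called. Both genes on chromosome 7 were lost in ARF-129 and in no other tumour, in separate segments near the ends of the chromosome. Akt2 lay in chr7:3049177-44214171 at -0.34 and Hras1 in chr7:122329383-141762546 at -0.35. In the other 4 tumours the segment mean of Akt2 lay between -0.11 and -0.02 and that of Hras1 between -0.06 and 0.01. ARF-129 had 28.2% of genes in a lost segment.

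Akt1 and Nf1 were called in no tumour. The highest segment mean over Nf1 was 0.21, in ARF-112, and the lowest over Akt1 was -0.19, also in ARF-112, and these are the values closest outside the threshold. No tumour had a loss over Nf1, Tsc1, Tsc2 or Stk11.

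**Figure D1:**
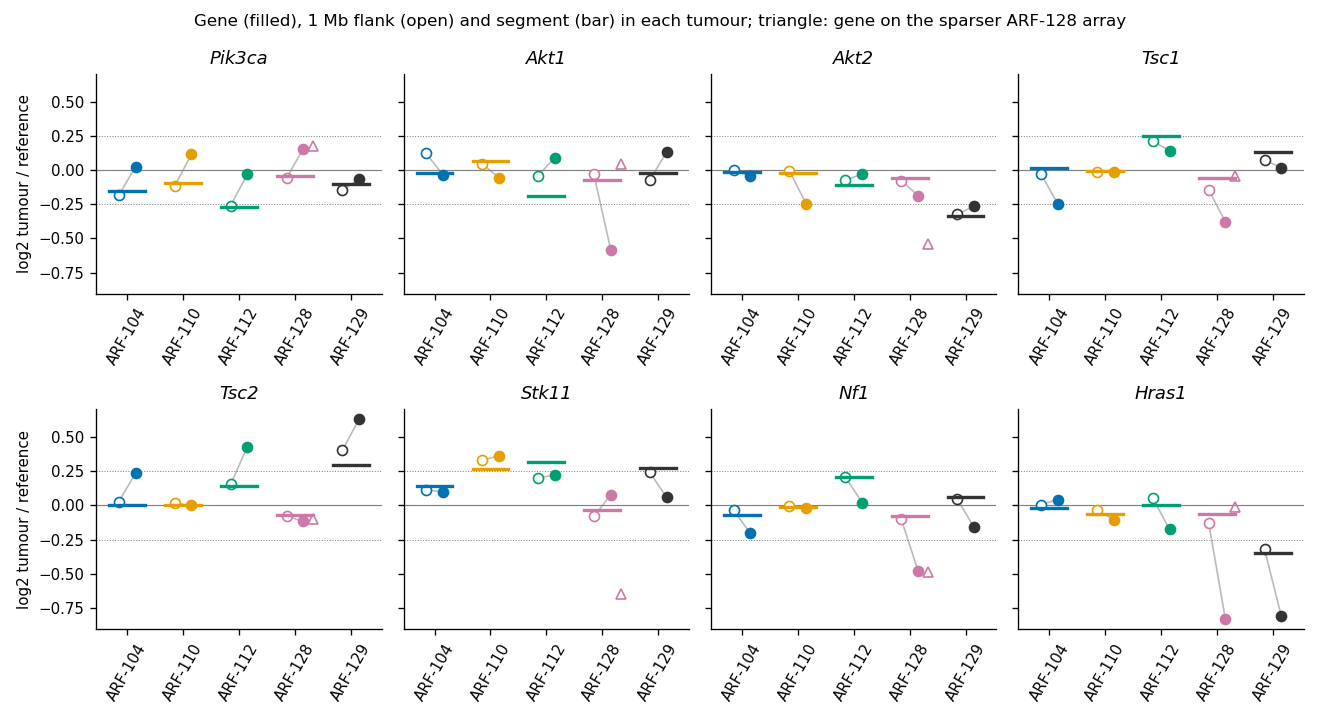
Each panel is 1 gene, the x axis the 5 tumours and the y axis the log2 ratio of tumour over reference. Filled points are the mean of the gene's probes, open points the mean of its 1 Mb flank, bars the segment mean, dotted lines the call thresholds of 0.25 and -0.25, and triangles the gene on the sparser array of ARF-128. Segment bars pass the upper threshold for Stk11 in 3 tumours, while the filled points of Akt1, Akt2, Stk11 and Hras1 in ARF-128 lie far from their triangles.

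The gene's own level was then set against its flank, the mean of all probes of other names within 1 Mb on either side, so that an arm-wide change drops out. Pik3ca was the only one of the 8 genes past the threshold of 0.05 in this comparison (limma, Benjamini-Hochberg over 24671 genes), against 21.9% of all genes tested. A call in 1 of 8 genes is no more frequent than this background. The count at an unadjusted p under 0.05 was 3 of 8 (37.5%), against 42.1% of all genes. Of the 8 genes, 3 lay on one side of the flank in all 5 tumours, where 37.3% of genes with 5 values did. The median of the 8 differences was -0.08, and that over all genes tested was -0.00.

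Pik3ca, the PI3K catalytic subunit on chr3:32246568-32264898, read higher than its flank. The gene minus the flank was 0.21 for ARF-104, 0.23 for ARF-110, 0.23 for ARF-112, 0.22 for ARF-128 and 0.08 for ARF-129. All 5 tumours were above 0, and ARF-129 was the lowest. The mean was 0.19 ± 0.06 (SD, n = 5), with a limma adjusted p of 0.0387 and an exact two-sided sign-flip permutation p of 0.0625, the smallest that 5 tumours allow. The 3 tumours of the same scan day had a mean of 0.17 ± 0.08 (SD, n = 3). When the scan day was a random block in limma, the mean was 0.21 and the adjusted p 0.333, and with normexp background correction the mean was 0.09 and the adjusted p 0.0817. Leaving out ARF-129 (mean 0.22, adjusted p 0.114), ARF-112 (0.18, adjusted p 0.145) or ARF-104 (0.19, adjusted p 0.140) also ended the call. With the scan-day block, and with each of these tumours left out, none of all genes tested passed the threshold, with 4258 to 7352 at an unadjusted p under 0.05 in limma. The flank of Pik3ca was below 0 in all 5 tumours, from -0.26 for ARF-112 to -0.06 for ARF-128, with a mean of -0.15 ± 0.08 (SD, n = 5). The gene itself lay between -0.07 for ARF-129 and 0.16 for ARF-128, with a mean of 0.04 ± 0.10 (SD, n = 5), so the difference came from a flank below 0 and a gene near 0.

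Within Pik3ca the 4 probes of the denser design did not read alike. The probe A_67_P00612334 was below the flank in all 4 tumours measured with it, at -0.36 in ARF-104 and -0.21 in ARF-112, and -0.95 in ARF-128 and -0.58 in ARF-129. Only 5.89 kb from the first probe, it lies between probes that were all above the flank in the same 4 tumours. Its neighbour A_53_P163607 read 0.52 in ARF-104 and 0.71 in ARF-112, and 0.20 in ARF-128 and 0.49 in ARF-129. Of these probes the sparser design carries A_53_P163607 and A_53_P136623 but not the low one, and ARF-110 gave 0.33 and 0.13 for them. In a single tumour the SE of the difference, from the spread of probes, was 0.11 to 0.42, and 1 of the 5 differences was larger than 2 SE.

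Akt1 and Akt2, the kinases downstream of PI3K, did not pass the test. For Akt1 (chr12:110179406-110198087) the gene minus the flank was -0.16 for ARF-104, -0.10 for ARF-110, 0.13 for ARF-112, -0.55 for ARF-128 and 0.20 for ARF-129, with a mean of -0.09 ± 0.30 (SD, n = 5) and a limma adjusted p of 0.552. The tumours lay on both sides of 0, and the lowest value belongs to the noisiest array. The sparser array of the same tumour gave -0.06, and with it the mean over tumours became 0.00. Between the arrays of ARF-128 the level of Akt1 itself was -0.58 on the denser and 0.05 on the sparser one. The 2 probes that both designs carry, at either end of the gene, read -1.01 and -1.03 against the flank on the denser array and 0.07 and -0.19 on the sparser one.

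For Akt2 (chr7:24531646-24552010) the gene minus the flank was -0.04 for ARF-104, -0.24 for ARF-110, 0.04 for ARF-112, -0.11 for ARF-128 and 0.06 for ARF-129. The mean was -0.06 ± 0.12 (SD, n = 5), with a limma adjusted p of 0.496, and no single difference was larger than 2 SE. In ARF-129 the gene (-0.26) and its flank (-0.32) were low together, as the segment was. The value of ARF-110 rests on 1 probe, A_53_P179880, which was also below the flank in ARF-104 (-0.35), ARF-112 (-0.37) and ARF-129 (-0.67) and on the sparser array of ARF-128 (-0.70), but not on its denser array (0.04). The other 3 probes of Akt2 read between -0.01 and 0.48 for ARF-104, ARF-112 and ARF-129, and 0.65, -0.70 and -0.43 for ARF-128.

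The subunits of the Tsc complex lay on opposite sides of their flanks, and neither passed the test. Tsc1 (chr2:28650280-28694806) was below its flank in all 5 tumours, by 0.22 for ARF-104, 0.00 for ARF-110, 0.07 for ARF-112, 0.24 for ARF-128 and 0.06 for ARF-129, although the value of ARF-110 is within 0.01 of 0. The mean was -0.12 ± 0.10 (SD, n = 5), with a limma adjusted p of 0.162 and an exact sign-flip p of 0.0625. Of its 6 probes 1 stood apart. A_67_P04466203 read -1.03 in ARF-104 and -0.69 in ARF-112, and -1.48 in ARF-128 and -0.81 in ARF-129, while 4 of the other 5 read between -0.21 and 0.39 in these tumours. The other, A_67_P04466150, was also below the flank in all 4, at -0.24, -0.16, -0.80 and -0.16 in the same order. When only the probes of both designs were used, which leaves out 4 of the 6 probes, these among them, the mean of Tsc1 was 0.13 (adjusted p 0.234).

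Tsc2 (chr17:22778730-22807676) was above its flank in ARF-104 (0.21), ARF-112 (0.28) and ARF-129 (0.23), and at -0.02 for ARF-110 and -0.04 for ARF-128. The tumours above 0 are those of 1 scan day, with a mean of 0.24 ± 0.04 (SD, n = 3). Over all 5 the mean was 0.13 ± 0.15 (SD, n = 5), with a limma adjusted p of 0.185, and with a random block for scan day it was 0.07 (adjusted p 0.716). The level of the gene itself was 0.63 for ARF-129, 0.43 for ARF-112, 0.24 for ARF-104, 0.00 for ARF-110 and -0.12 for ARF-128. ARF-129 was the highest and is the tumour with the gain of chromosome 17. Paired by probe, ARF-129 lay above ARF-112 by 0.20 ± 0.07 (SE over 7 probes), higher at 5 of 7, and ARF-112 above ARF-104 by 0.19 ± 0.08, higher at 6 of 7. ARF-104 lay above ARF-128 by 0.35 ± 0.26, which is within 2 SE. The pairs were taken in the observed order of levels on the denser design, so the direction of each mean difference was set beforehand. These SEs cover the spread of probes on single arrays, not repeat arrays, and the order of the tumours was not tested.

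The 7 probes of Tsc2 had the widest spread of any of the 8 genes, 1.88 between the highest and the lowest probe mean. A_67_P08739999 was high, at 0.84 in ARF-104 and 0.74 in ARF-112, and 1.17 in ARF-128 and 0.83 in ARF-129. A_53_P152128 was low in the same tumours, at -0.61, -0.65, -1.71 and -0.96, and read -0.18 for ARF-110 and -0.94 on the sparser array of ARF-128. The 2 probes lie within the same gene and in the same segment, so a gene mean depends on which of them a design carries. With only the probes of both designs the mean of Tsc2 was -0.19 (adjusted p 0.294).

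Stk11 (chr10:79900043-79911306), the kinase upstream of AMPK, also had probes on both sides of its flank. Its gene-minus-flank mean was 0.00 ± 0.12 (SD, n = 5), from -0.18 for ARF-129 to 0.16 for ARF-128, with a limma adjusted p of 0.982. Beneath this mean, A_67_P02168384 was above the flank by 0.43 in ARF-104 and 0.43 in ARF-112, and 0.87 in ARF-128 and 0.41 in ARF-129. A_67_P02168408, at the other end of the gene, was above it by 0.42, 0.50, 0.86 and 0.50. A_53_P115584, between them and 3.93 kb from the first, was at -0.88, -0.97, -1.54 and -1.41 in the same 4 tumours and at -0.86 on the sparser array of ARF-128. In ARF-110 the same probe read 0.03. This is the only Stk11 probe of the sparser design, so the level of 0.36 for Stk11 in ARF-110 rests on it alone.

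The direction given for Stk11 therefore depended on the probes used. Its own level against 0 was 0.10 for ARF-104, 0.36 for ARF-110, 0.22 for ARF-112, 0.08 for ARF-128 and 0.06 for ARF-129, above 0 in 5 of 5 tumours, with a mean of 0.16 ± 0.13 (SD, n = 5) and a limma adjusted p of 0.224. With the median over probes in place of the mean it was 0.41 (adjusted p 0.0237), and with only the probe of both designs it was -0.79 (adjusted p 0.0409). Both pass the threshold, in opposite directions. Of 20 alternatives for this level 3 passed in limma, both of these among them, and the remaining one was above 0. The flank, which does not use these probes, was above 0 in 4 of 5 tumours, at 0.12, 0.33, 0.20, -0.08 and 0.24 in the order above, with a limma adjusted p of 0.206.

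**Figure D2:**
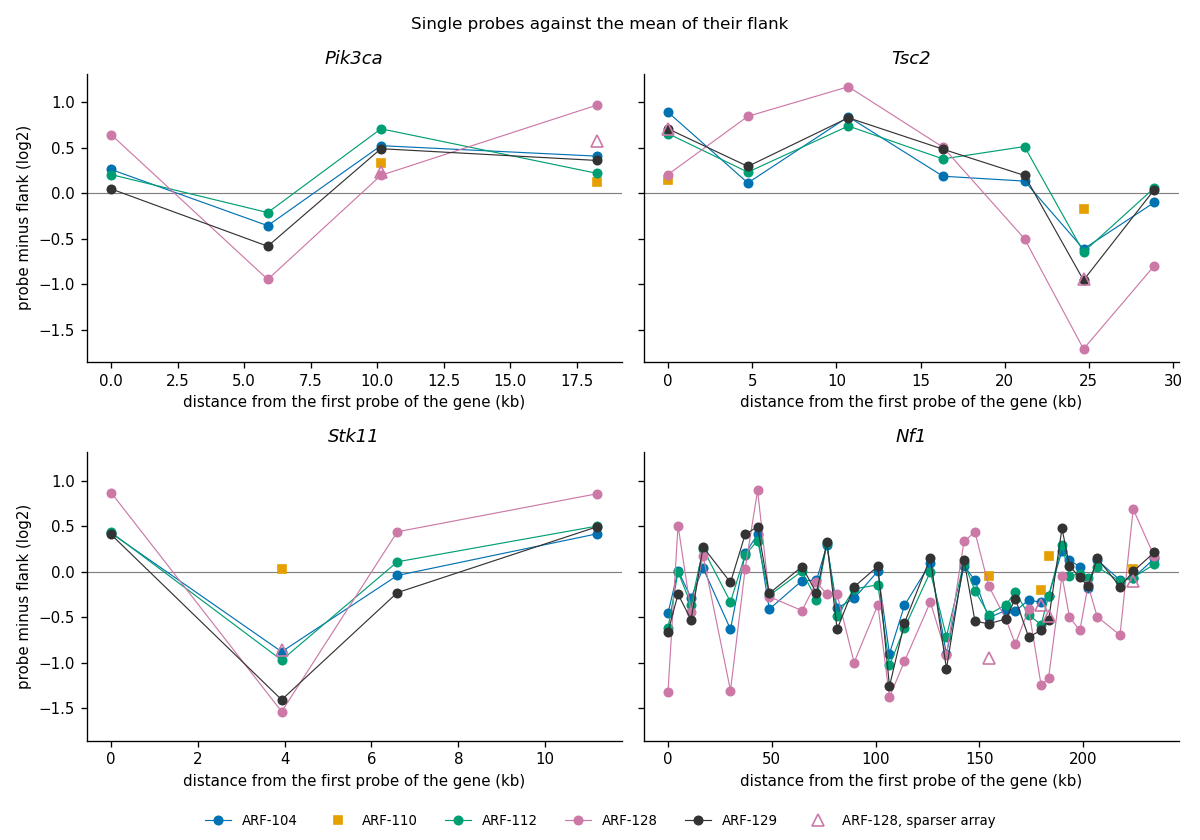
Each point is 1 probe in 1 tumour, with the distance from the gene's first probe in kb on the x axis and the probe's log2 ratio minus the flank mean on the y axis, for Pik3ca, Tsc2, Stk11 and Nf1. Circles joined by lines are the 4 tumours on the denser design, squares ARF-110 and triangles the sparser array of ARF-128. At 3.93 kb in Stk11 all 4 lines are far below 0 and ARF-110 lies near 0, while at other probes, as at the start of Tsc2 (0.21 for ARF-128 and 0.89 for ARF-104), the line of ARF-128 departs from the rest.

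Nf1, the Ras inhibitor, is the longest of the 8 genes and the most densely measured, with 34 probes over chr11:79428638-79662968. It was below its flank in 5 of 5 tumours. The gene minus the flank was -0.17 for ARF-104, -0.01 for ARF-110, -0.19 for ARF-112, -0.38 for ARF-128 and -0.21 for ARF-129, with a mean of -0.19 ± 0.13 (SD, n = 5), a limma adjusted p of 0.0708 and an exact sign-flip p of 0.0625. It missed the threshold with all 5 tumours and passed it without ARF-110 (mean -0.24, adjusted p 0.0338). With SEs of 0.06 to 0.12 from the spread of probes, 4 of the 5 differences were larger than 2 SE. Over the 8 genes 6 of 40 were, these 4 among them, and the share over all genes was not computed. The 4 are the tumours of the denser design, read with the same 34 probes. Probe values minus the gene mean correlated between these arrays (Pearson r 0.64 to 0.95, 63 probes of 7 genes). The 4 are therefore not independent of each other, and probes are not repeat samples. The SE falls with the number of probes, and for a gene with 1 probe on an array it used the spread of the flank probes. The 3 tumours of 1 scan day gave -0.19 ± 0.02 (SD, n = 3), and the sparser array of ARF-128 gave -0.47. The level of Nf1 itself was -0.20, -0.02, 0.02, -0.48 and -0.16 in the order above, with a limma adjusted p of 0.265, and its flank was on both sides of 0.

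Along Nf1 the low values were not a single block. Of the 34 probes, 18 were below the flank in all 4 tumours of the denser design, 5 were above it in all 4 and 11 were mixed. The lowest, A_67_P07410914, read -0.90 in ARF-104 and -1.03 in ARF-112, and -1.38 in ARF-128 and -1.26 in ARF-129, and the nearest probes on either side of it read between -0.98 and 0.06. A_67_P02372316, the highest, read 0.41, 0.34, 0.90 and 0.50. The 4 Nf1 probes of the sparser design read -0.05, -0.20, 0.17 and 0.03 against the flank in ARF-110, close to 0 on both sides.

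Hras1, the Ras GTPase, is measured by 1 probe, so its values have no spread over probes. The probe minus the flank was 0.04 for ARF-104, -0.07 for ARF-110, -0.23 for ARF-112, -0.71 for ARF-128 and -0.49 for ARF-129. Only ARF-104 was above 0, and the mean was -0.29 ± 0.31 (SD, n = 5), with a limma adjusted p of 0.110. The same probe on the sparser array of ARF-128 read -0.06, so the lowest of the 5 values was not found again in the other array of that tumour. With that array in place of the denser one the mean was -0.16, without ARF-128 it was -0.19, and with normexp background correction it was -0.10. Its GC content was 44.2%, the flank's mean was 37.6%, and after a correction for probe GC the mean was -0.41 and the adjusted p 0.0413. Against 0 the level was 0.04, -0.10, -0.17, -0.83 and -0.81, and in ARF-129 the flank was low as well, at -0.32.

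Probes that lay on one side of the flank in all 4 tumours of the denser design were found in 6 of the 8 genes, and they were not particular to these genes. Of their 64 probes, 23 were below the flank in all 4 tumours of the denser design and 17 above it in all 4, together 62.5%. Over 140666 probes of all genes the share was 63.0%. By gene, Akt1 had no such probe among 4, Hras1 had 0 of 1 and Akt2 had 1 of 4, while Pik3ca had 4 of 4, Tsc1 4 of 6, Tsc2 5 of 7, Stk11 3 of 4 and Nf1 23 of 34. All of these arrays share the probes and the C57BL/6J reference, so a shared deviation can come from the tumours, the reference or the probe, which cannot be told apart here.

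Against 0, none of the 8 genes passed the threshold (limma, Benjamini-Hochberg), where 17.5% of all genes did, and 1 of 8 (12.5%) had an unadjusted p under 0.05, against 36.3% of all genes. This gene was Hras1, with an adjusted p of 0.112. Akt2 was below 0 in all 5 tumours, from -0.26 to -0.03, with a mean of -0.15 ± 0.11 (SD, n = 5) and an adjusted p of 0.241. None of the 8 flanks passed either, where 4.29% did over all genes, and 2 of 8 (25%) had an unadjusted p under 0.05, against 22.6% of all flanks. These were the flanks of Pik3ca, with an adjusted p of 0.175, and of Stk11. Both passed with the sparser array of ARF-128 in place of the denser one (0.0493 and 0.0362).

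**Figure D3:**
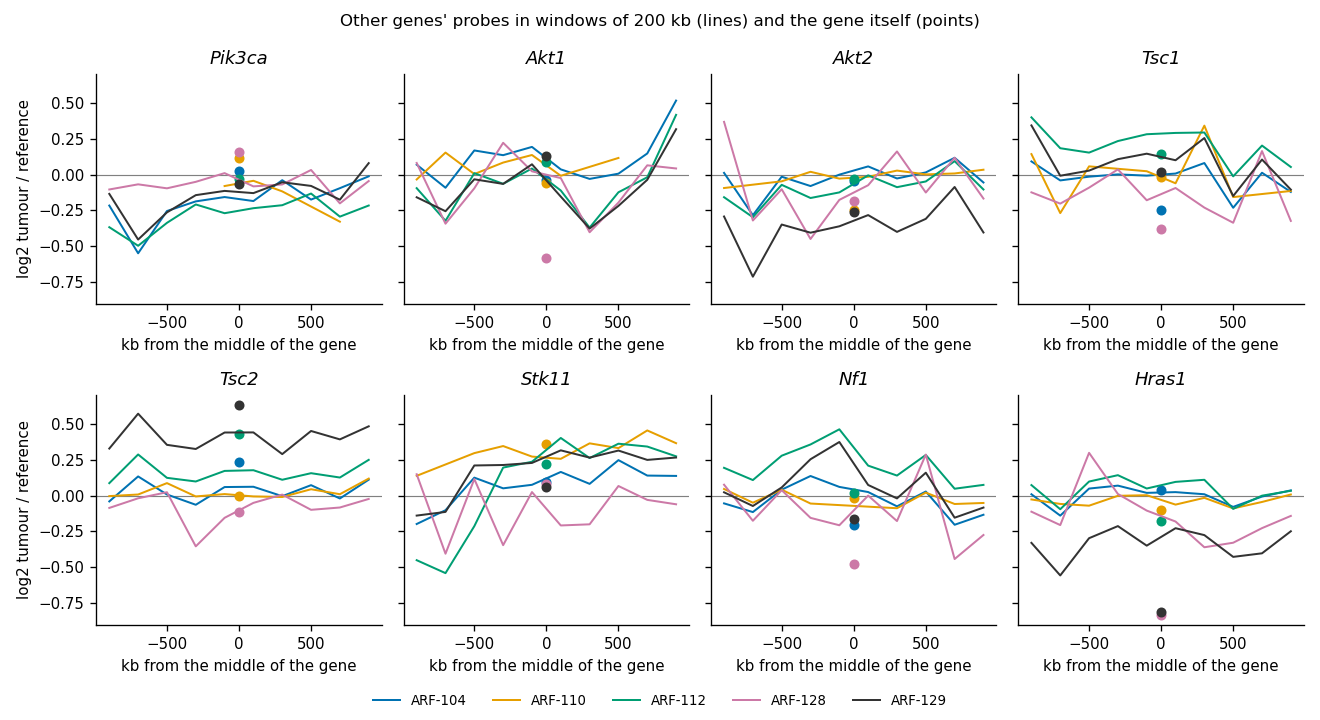
Lines are means of the log2 ratio (y axis) of other genes' probes in windows of 200 kb within 1 Mb of the middle of each gene (x axis, kb), 1 line per tumour, and points at 0 kb are the gene itself. The lines of ARF-129 lie below those of the other tumours over most of the windows of Akt2 and Hras1 and above them for Tsc2, and the Pik3ca points lie above most of the lines.

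The nearest genes on each side were read in the same way, most of them from 1 to 3 probes. Beside Akt1, Siva, a gene of apoptosis, read 0.41 ± 0.15 (SD, n = 4) and BC046387 0.50 ± 0.17 (SD, n = 5), each from 1 probe, while Akt1 was at -0.09. Beside Pik3ca, AK036126 read -0.56 ± 0.15 (SD, n = 4) and AK039740 -0.25 ± 0.11 (SD, n = 5). On both sides of Tsc2 the neighbours were Pkd1, the polycystic kidney disease gene that lies next to it, at 0.12 ± 0.18 (SD, n = 5), and Nthl1, a DNA glycosylase gene, at 0.23 ± 0.15 (SD, n = 5), and both were highest in ARF-129 as Tsc2 was. Beside Tsc1 were Gfi1b at -0.26 ± 0.27 (SD, n = 5) and 1700026L06Rik at -0.13 ± 0.17 (SD, n = 5). Beside Nf1 the levels were near 0, with Rab11fip4 at 0.01 ± 0.11 (SD, n = 5, 15 probes) and AK039395 at -0.08 ± 0.39 (SD, n = 5). Stk11 had Dos on one side, at 0.36 ± 0.26 (SD, n = 5, 1 probe), and M26409 on the other, at 0.27 ± 0.17 (SD, n = 5, 88 probes). How many of the M26409 probes lie within the flank of Stk11 was not counted. Around the genes of chromosome 7, AK158792 (-0.25 ± 0.40) and AK028871 (-0.29 ± 0.33) flank Akt2, and AK145173 (-0.60 ± 0.31, n = 4) and Lrrc56 (-0.15 ± 0.22) flank Hras1, with SDs over 5 tumours unless given. Of these 4, all but AK158792 were lowest in ARF-129. The sparser design gives the only probe of AK028871 and 1 of the 2 probes of AK158792 the name Akt2. Whether they are separate from Akt2 was not tested.

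The gene on another chromosome with the most similar levels over the 5 tumours, by root mean square difference, was found for each of the 8. Only genes with at least 3 probes on the denser design and a value in all 5 tumours were compared. Nf1 had a close match in AK015742 (0.02), and 125 of 10955 genes lay within 0.1 of it. Tsc2 was matched by Azi1 (0.03), Akt1 by Nat10 (0.03), Pik3ca by Lin7a (0.05), Tsc1 by Tmem49 (0.05), Akt2 by 1700023E05Rik (0.05) and Stk11 by AK171175 (0.06). Hras1 had no gene within 0.1 among 11063, and the nearest was Clasp2 at 0.13. Its levels rest on 1 probe and those of the compared genes on at least 3, so this does not show that its profile is unusual.

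The wider pathway was described from a list of 63 other genes, of which 57 had a name in the files. Against the flank 10 passed the threshold (limma, Benjamini-Hochberg over all genes), 1 higher and 9 lower, or 17.5% against 21.9% of all genes. The median difference of the 57 was -0.06. With the scan day as a random block none of the 57 passed (limma), with a lowest adjusted p of 0.276 and 8 at an unadjusted p under 0.05, 1 higher and 7 lower. None of all 24671 genes passed then, with 4258 (17.3%, against 14.0% of the 57) at an unadjusted p under 0.05. When ARF-129, ARF-112 or ARF-104 was left out, none of the 57 and none of all genes passed in limma. At an unadjusted p under 0.05 there were then 14 or 15 of the 57 (24.6% or 26.3%), against 28.5% to 29.8% of all genes.

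The 9 below their flank were below it in all 5 tumours. Among mTORC1 targets, Rps6, the ribosomal protein that S6 kinase phosphorylates, read -0.71 for ARF-104, -0.23 for ARF-110, -0.85 for ARF-112, -1.12 for ARF-128 and -1.20 for ARF-129 against its flank (mean -0.82 ± 0.39 SD, n = 5, adjusted p 0.0244), from 1 probe. Processed copies of ribosomal protein genes are common in the genome, and whether this probe matches one was not tested. Eif4ebp1, the translation repressor that mTORC1 inhibits, read -0.59, -0.17, -0.59, -0.91 and -0.80 (mean -0.61 ± 0.28 SD, n = 5, adjusted p 0.0244), from 2 probes. Of the PI3K subunits, Pik3r1 was at -0.55 ± 0.35 (SD, n = 5, adjusted p 0.0355) and Pik3cb at -0.24 ± 0.10 (SD, n = 5, adjusted p 0.0349). The AMPK subunits Prkaa1 (-0.44 ± 0.28) and Prkab1 (-0.42 ± 0.21), the Ras GTPase-activating proteins Rasa1 (-0.28 ± 0.18) and Rasa2 (-0.26 ± 0.09), and Foxo1 (-0.21 ± 0.06), the transcription factor that Akt inhibits, complete them, with adjusted p from 0.0267 to 0.0494 (SD, n = 5). With normexp background correction the means of Rps6 and Eif4ebp1 shrank to -0.30 and -0.29, still past the threshold. The calls of Pik3r1 (-0.09, adjusted p 0.139), Pik3cb (-0.09, adjusted p 0.0851) and Rasa1 (-0.12, adjusted p 0.0806) ended with it. Pik3cb (0.0508) and Rasa1 (0.0726) also missed the threshold with the sparser array of ARF-128, and Rasa1 without that tumour (0.0595). In 7 of the 9 the tumour nearest to 0 was ARF-110, the only one on the sparser design, and the part of the design was not tested. The gene above its flank was Deptor, an mTOR inhibitor named Depdc6 in the files, at 0.19 ± 0.06 (SD, n = 5, adjusted p 0.0370).

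**Figure D4:**
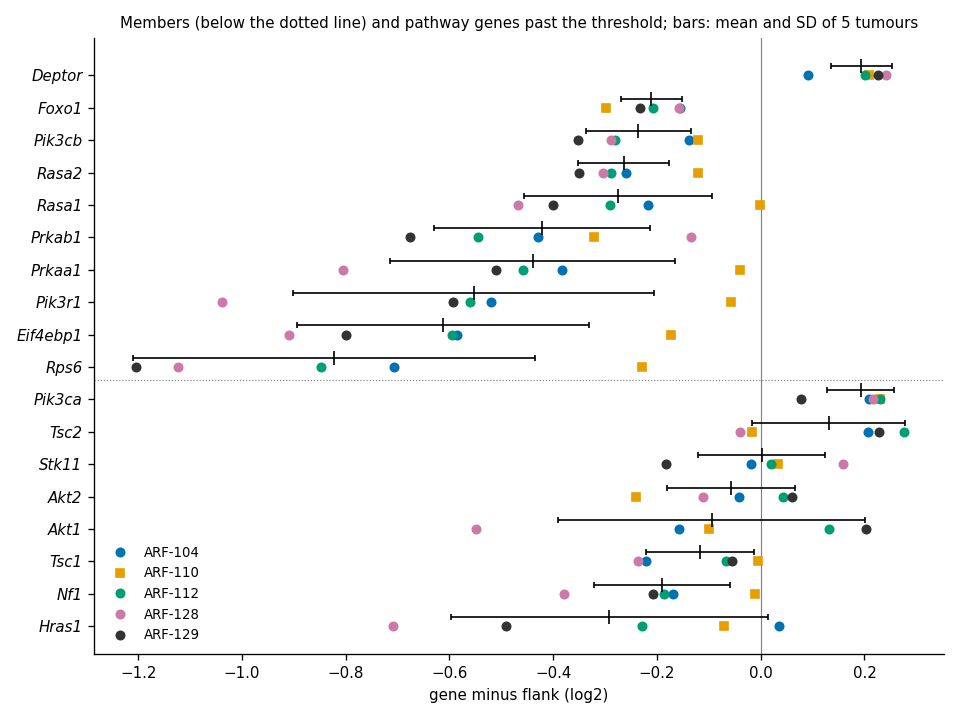
The x axis is the gene-minus-flank difference (log2), and each row is 1 gene, with 1 point per tumour and a bar for the mean and SD of 5 tumours. Members lie below the dotted line and the 10 pathway genes past the threshold above it. All 5 points of Pik3ca and Deptor lie above 0, and those of Tsc1, Nf1 and the 9 lower pathway genes below it.

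By segments the list was gained more often than lost. Of 285 pairs of a listed gene and a tumour, 51 were gained (17.9%, against 14.2% over all genes) and 29 lost (10.2%, against 8.95%). Gains in at least 3 tumours covered 10 of the 57 listed genes, where 13.4% of all genes had them. Those gained in 4 of 5 tumours included Rps6kb2 on chromosome 19 and Deptor, Prkaa1 and Rictor (named 4921505C17Rik in the files) on chromosome 15. Gained in 3 tumours were Eif4ebp1, Pik3r2 and Inpp4b on chromosome 8, Prkag1 on chromosome 15 and Map2k2 on chromosome 10. Of these, Eif4ebp1 was also lost in 1 tumour, ARF-110, with a segment mean of -0.38. No listed gene was lost in 3 or more tumours, where 0.677% of all genes were. Eif4ebp1 and Prkaa1 are also among the 9 genes that read below their flank.

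Against 0, 8 of the 57 passed the threshold (14.0%, against 17.5% of all genes), 2 higher and 6 lower. With the scan day as a random block none did in limma, with 4 higher and 10 lower at an unadjusted p under 0.05 (24.6%, against 24.2% of all genes), and 410 of 24671 genes passed.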

How the data were processed

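Genomic DNA of 5 tumours was measured on 6 two-colour arrays. Per the file headers, the authors obtained processed red and green spot intensities from Agilent Feature Extraction (8.5.1.1 for the sparser design, 9.5.3.1 for the denser array of ARF-128 and 9.1.3.1 for the other 3). The deposited log ratio column and the value table of the sparser design hold log10 ratios, and the deposited value table of the denser design holds log2 ratios, as a comparison with each array's own values showed. Within a tolerance of 0.0001, 26608 (ARF-110) and 26750 (ARF-128) of 44050 values of the sparser design matched the array's own, and all 243002 per array of the denser design. Column medians were 0 for ARF-110 and 0.06 for ARF-128 (sparser, as log2) and 0.02 to 0.05 (denser), so all columns but that of ARF-110 had a median away from 0. Positions are mm7, named in the header of 1 file of the denser design and used for all probes by probe name. For the sparser design no build was found in the sources used here.

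Spots that are controls or carry an outlier mark were dropped, log2 of processed red over green was computed for the rest, probes spotted more than once were averaged, and the autosomal median of the array was subtracted. Probe values were averaged per gene name. Names with values in at least 4 tumours were tested with limma 3.58.1 (intercept, eBayes, two-sided, Benjamini-Hochberg over all names, statmod 1.5.0 for the block, R 4.3.3). The reference DNA has no replicates of its own in this test. Segments were fitted per chromosome (PELT, penalty 5 log n, at least 5 probes, Python 3.11.15, numpy 2.4.6, pandas 2.3.3, numba 0.67.0). Both methods were first run on simulated data. The simulated noise was drawn independently for each probe and array, without the probe deviations that arrays share here. The simulation therefore does not show how often limma calls genes in these data. The sign-flip test has 32 sign patterns. Arrays were scanned on 3 days: the sparser arrays first, then ARF-129, ARF-112 and ARF-104, then the second array of ARF-128.

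The 8 genes, the pathway list and the rule for named genes were chosen with earlier results of these data known. Named were the 8 genes, the nearest other name on each side, the most similar gene on another chromosome, up to 10 listed genes past the threshold against the flank and up to 10 gained or lost in at least 3 tumours. On the sparser design Akt2 also names 2 probes, Pik3ca 1 and Hras1 1 that the denser design gives to other names. These were not counted as probes of the 8 genes. Those of Akt2 and Pik3ca belong to the neighbours AK158792, AK028871 and AK039740 described above. The number of arrays limits the precision. The result of 1 listed gene that the rule names is not reported here. Figures were drawn with matplotlib 3.10.9.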

Additional observations from a re-analysis of the deposited data

Results flagged for a closer look

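In 6 of 56 groups of 5 tumours the highest or lowest tumour stood apart from the others by more than Dixon's critical value of 0.71 times the range. For independent values of equal spread, chance flags about 1 group in 20. Here probe noise ran from 0.15 to 0.78 between arrays, and groups of the same gene share values. The listed genes were also named from these data, so 6 of 56 cannot be set against that rate. Among the 8 genes, ARF-129 was the low value of Pik3ca minus its flank (0.079), ARF-128 the low value of the Akt1 level (-0.58, against 0.05 on its sparser array), and ARF-129 the low value of the Akt2 flank (-0.32), where its segment was called lost. In the pathway list, ARF-104 was low for Depdc6 (Deptor) minus its flank (0.091), ARF-128 for the level of 4921505C17Rik (Rictor, -0.18), and ARF-110 was high for Inpp4b minus its flank (-0.014).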

How the results depend on the processing

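No paired analysis was possible because all tumours form 1 group. Of 509 alternative values of the 8 genes, 467 kept their direction and their side of the threshold and 5 lost the call (all Pik3ca minus its flank). A further 8 gained a call without a change of sign, and 29 changed sign. Among the 29, Stk11 minus its flank and the Stk11 level passed the threshold with probes of both designs. The correction for probe GC was chosen after seeing the data. Against the flank, called members numbered 0 with normexp or the scan day as a random block, 2 with probes of both designs or the GC correction, and 0 to 2 without 1 tumour. Over all genes the count of 5401 became 8694 with both ARF-128 arrays averaged, 3418 with genes in 5 tumours, 2844 with genes of at least 3 probes, 0 with the scan day block and 0 to 8044 without 1 tumour. Against 0, members numbered 1 with normexp, the median over probes, probes of both designs or the GC correction, and 0 without any 1 tumour. All genes against 0 went from 4329 to 6629 (both ARF-128 arrays), 1958 (at least 3 probes), 410 (scan day block) and 0 to 5451 (without 1 tumour). Called flanks of members numbered 2 with the sparser ARF-128 array, 1 with the scan day block and 0 without any 1 tumour. Called flanks of all genes went from 1058 to 2311 (sparser ARF-128 array), 2019 (probes of both designs), 545 (at least 3 probes), 5076 (scan day block) and 742 to 1385 (without 1 tumour). The correlation within scan day fitted for the block was -0.230 for flanks, against 0.866 for gene minus flank and 0.423 for genes against 0. The part of this negative value in the count of 5076 was not tested. Gained pairs of members went from 5 to 0 at a threshold of 0.35, 1 with normexp and 3 to 5 without 1 tumour, and lost pairs from 3 to 1, 0 and 1 to 3. Of the pathway list against the flank, 1 higher became 3 (sparser ARF-128 array), 5 (both arrays), 3 (normexp), 0 (scan day block) and 0 to 4 (without 1 tumour), and 9 lower became 15 (both arrays), 0 (scan day block) and 0 to 16 (without 1 tumour). Of the list against 0, 2 higher became 6 (sparser), 5 (both arrays), 5 (normexp), 0 (scan day block) and 0 to 4 (without 1 tumour), and 6 lower became 12, 10, 2, 0 and 0 to 8.

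Signs changed as follows. Stk11 minus its flank was -0.20 with the sparser ARF-128 array, -0.10 with both arrays and -0.040 with the GC correction. Without 1 tumour it ranged from -0.037 to 0.048. With probes of both designs it was -0.998 (limma adjusted p 0.0283) and the Stk11 level was -0.79, both past the threshold. Akt1 minus its flank was 0.0039 with the sparser ARF-128 array and -0.17 to 0.020 without 1 tumour. The Akt1 level was 0.036 with that array and -0.15 to 0.033 without 1 tumour. The Akt1 flank was -0.031 when centred on the mode, -0.0040 with the median over probes, -0.0088 with probes of both designs, -0.029 with the GC correction and -0.025 to 0.023 without 1 tumour. With probes of both designs, Tsc1 minus its flank was 0.13 and its level 0.15 (0.0073 with the median over probes), Tsc2 minus its flank was -0.19 and its level -0.044, and the Nf1 flank was -0.035. Centred on the mode, the Tsc1 flank was -0.014 and the Nf1 flank -0.012. Without 1 tumour the Tsc1 flank was -0.027 to 0.062 and the Nf1 flank -0.023 to 0.054. The Hras1 flank was 0.0051 with normexp. Fewer tumours lowers the number of samples and fewer probes the number of genes tested; otherwise the cause was not tested. Probe noise limits ARF-128 most.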
